A study of Mus musculus with 15 samples.

Results

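The comparison sets acute myeloid leukemia at 84 and 96 h after an oncogenic RAS transgene was switched off (late RAS-OFF, 4 arrays) against the same leukemia at 48 and 60 h (early RAS-OFF, 4 arrays). These 8 of the series' 15 arrays were chosen by the times in their titles, not by any measured value. All 18193 genes with a single gene name were compared. The leukemia carries the fusion gene Mll-AF9 and an NRAS transgene with the G12V change, which is silenced by doxycycline. SCID/Beige mice, which lack mature B and T cells, received the cells through a tail vein and were left until day 20, when the blood held more than 100000 white cells per µl. All RAS-OFF mice were then injected with doxycycline and kept on doxycycline water; the labels name no difference between early and late mice other than the time on the drug. The other 7 arrays come from vehicle-treated mice (RAS-ON, 5 arrays) and from 72 h of doxycycline (2 arrays). They were not in the main fit and serve as levels set beside the 8. The 72 h arrays also entered the fit of steps between times and an alternative fit of 10 RAS-OFF arrays. RNA came from AML cells of leukemic spleens. The labels number 2 replicates per time and do not say whether these were separate animals, so the p-values below measure only how these samples spread, and part of that spread may be technical.

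RAS proteins pass growth factor signals to the RAF, MEK and ERK kinases, which raise immediate early transcription factors, cyclin D1 and a set of feedback inhibitors. MLL-AF9 keeps the HOXA cluster and its cofactors active in myeloid progenitors and holds back their maturation. Myeloid cells that mature fill their granules stepwise, from the azurophil granules of promyelocytes to the specific and gelatinase granules of neutrophils, and leave the cell cycle as they do so.

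The myeloid identity of the samples was checked on 7 defining genes. Ptprc, the pan-leukocyte antigen CD45, read 13.06 to 13.44 on the log2 intensity scale on the 8 arrays, and the granule gene Mpo read 12.37 to 12.73. The remaining 5 were also measured, from Meis1 at 7.44 to 8.05 to Elane at 10.71 to 12.33. Meis1 was dimmer than most genes (percentile 42.9). The myeloid integrin gene Itgam had the widest range of the 7, from 8.36 to 10.83, so its level was not even across the 8 arrays. In a bulk sample such as this, fewer cells of a type and less RNA per cell cannot be told apart.

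A pair of late arrays stood apart. On 84 h replicate 1 the summed intensity of 35 exocrine pancreas genes was 113051, against 4530 to 5101 on the other 7 arrays. Of the 33 genes that stood at least 1 log2 unit above every other array there, 28 were pancreas genes. The brightest were Ctrb1 (chymotrypsinogen) at 13.50, Cela1 (elastase) at 13.40, Prss2 (trypsinogen) at 13.33, Reg1 at 13.29 and 2210010C04Rik at 13.10. On the other 7 arrays Cela1 read at most 9.91, and the other 4 genes at most 7.79. On 96 h replicate 1 the Gapdh control probe sets differed by 1.22 log2 units between the 3′ and 5′ ends, against 0.14 to 0.22 on the other 7, and those of beta-actin by 0.46 against -0.07 to 0.11. A large 3′ minus 5′ difference is a sign of degraded RNA. Each main count below is therefore also given without both arrays. Insulin and the other endocrine pancreas genes did not follow the exocrine ones: 0 of 14 passed the test in limma (2 at an unadjusted p below 0.05), and Scg2, the member with the largest change, had a value of 0.24 ± 0.09 (SE; adjusted p = 0.105). None of the 35 exocrine genes passed the test with all 8 arrays (1 at an unadjusted p below 0.05). Clps (colipase), the member with the largest change, read 5.69 and 5.70 at 48 h, 5.90 and 5.92 at 60 h, 12.04 and 6.001 at 84 h, and 5.94 and 6.14 at 96 h, so that only the first array at 84 h stood out (1.73 ± 1.07; adjusted p = 0.32). The exocrine list's median change was 1.09 with all 8 arrays and 0.05 without the pair, where 1 gene rose. Without 84 h replicate 1 alone, 1 exocrine gene rose and 1 fell, and 1 endocrine gene rose without 60 h replicate 2.

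**Figure D1:**
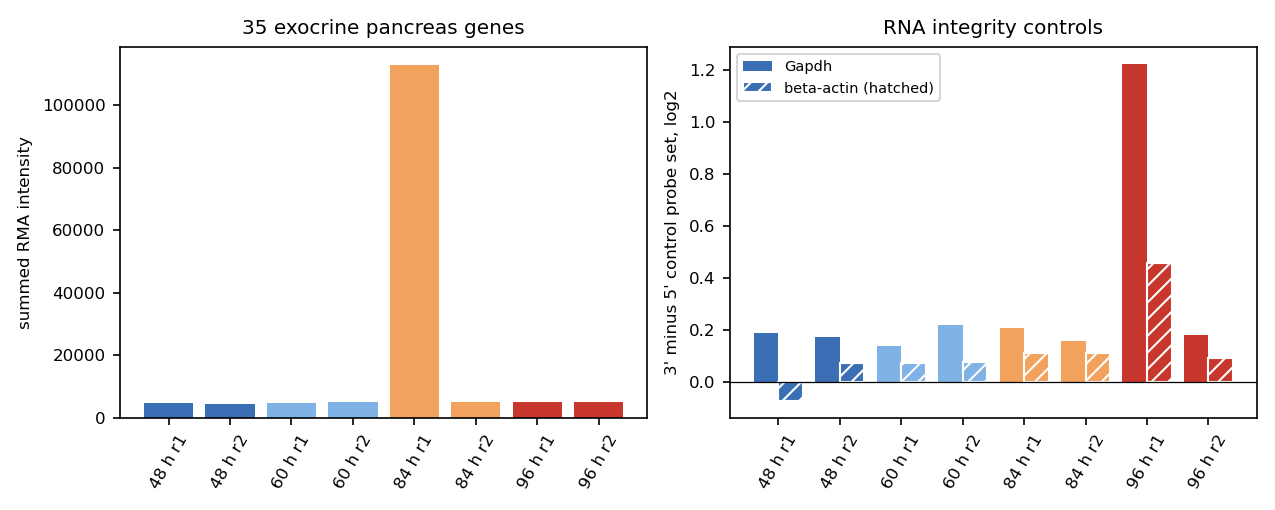
Left, summed RMA intensity of 35 exocrine pancreas genes on each of the 8 arrays, 1 bar each. Right, 3′ minus 5′ log2 difference of the Gapdh (plain) and beta-actin (hatched) control probe sets. Replicate 1 at 84 h reads 113051 for the pancreas genes against 4530 to 5101 elsewhere, and replicate 1 at 96 h reads 1.22 for Gapdh against 0.14 to 0.22 elsewhere.

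The comparison asks what still changes in the leukemia once RAS has already been off for 48 h. In short, most listed genes of granules, monocytes, antigen presentation, the immediate early response and glycolysis were called lower late, and most of those of DNA replication, mitosis and red cells higher. In limma, a linear model with 1 variance per gene moderated across all genes, 1093 genes (6.01%) were higher and 1949 (10.7%) were lower late than early at an adjusted p below 0.05, and 3042 (16.7%) passed in either direction. These shares of all genes are the background for every list count of the main fit below, also where they are not repeated. For counts without the first replicates of 84 and 96 h, the background is 4% higher and 8.21% lower. The changes were small. The median called rise was 0.34 and the median called fall -0.40 on the log2 scale, beside 0.00 for all genes, and only 6 genes rose and 23 fell by at least 1 log2 unit. The 4 late values lay wholly above the 4 early ones for 1483 genes (8.15%) and wholly below for 2323 (12.8%). Without the first replicates of 84 and 96 h, 728 genes (4%) were higher and 1493 (8.21%) lower. Genes called higher made up 35.9% of the calls as the authors scaled the arrays and 53.1% when each array was centred on its median, where 1721 were higher and 1519 lower. The array medians that this centring sets equal ran from 8.015 (84 h replicate 2) to 8.128 (48 h replicate 1).

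Among the steps tested, calls came only from that of 60 to 84 h, the longest. Steps from 60 to 72 h and from 72 to 84 h were not run. In limma no gene passed between 48 and 60 h in either direction (1318 genes at an unadjusted p below 0.05) and none between 84 and 96 h (1032 genes). From 60 to 84 h, 454 genes (2.5%) were higher and 706 (3.88%) lower, with 3366 genes at an unadjusted p below 0.05. Each step rests on 2 arrays at each time, and the 84 h arrays include replicate 1 with its pancreas transcripts. The spread was taken from all 10 RAS-OFF arrays, those of 72 h included. The differences between steps were not tested. The main fit of late against early did not use the 2 arrays at 72 h. Their mean fell between the early and the late mean for 90.9% of the genes called higher and 91.6% of those called lower, against 51.1% of all genes. Called genes were picked for a wide gap between the early and late means, into which a 72 h mean falls more easily. The 51.1% is therefore not a like baseline. At the median, the called rises had covered 59.9% of the way from the early to the late mean by 72 h and the called falls 50.3%.

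**Figure D2:**
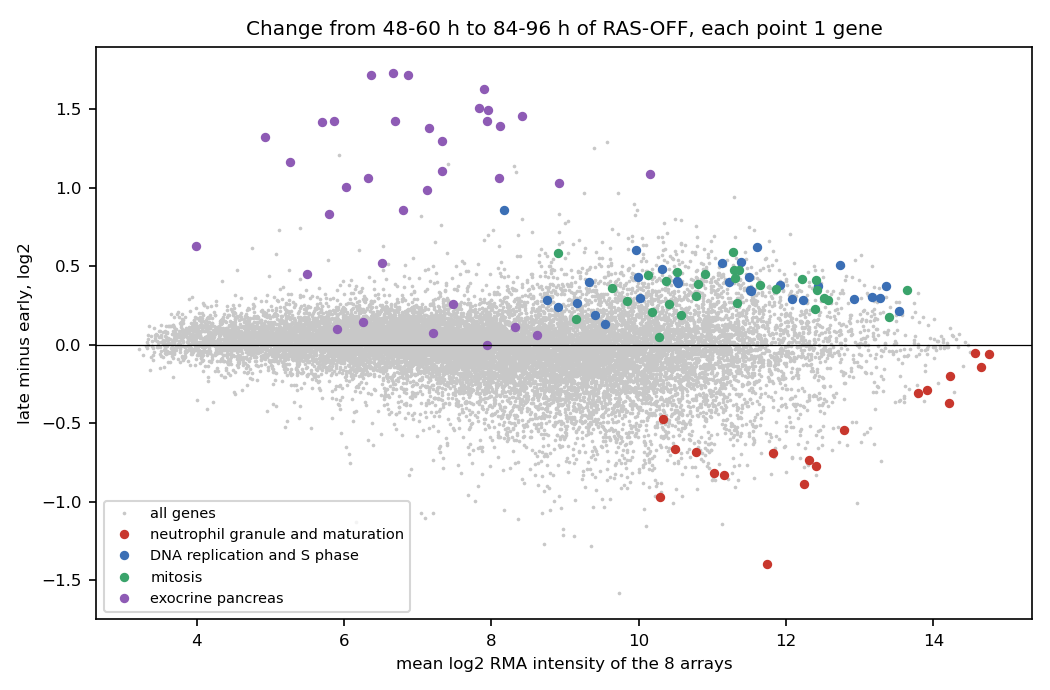
Change from early to late RAS-OFF (log2, vertical) against the mean log2 RMA intensity of the 8 arrays (horizontal), 1 point per gene, with 4 gene lists coloured. Neutrophil genes lie below 0 (median -0.66), replication (0.37) and mitosis genes (0.35) above it, and the exocrine pancreas genes (1.09) stand high, with 84 h replicate 1 in the late mean.

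The largest rises, taken by size among called genes whose groups did not overlap and which stayed below an unadjusted p of 0.01 without the first replicates of 84 and 96 h, were led by Tac2, the precursor gene of neurokinin B. Tac2 read 9.10 and 9.02 at 48 h, 8.81 and 8.78 at 60 h, 10.24 and 10.39 at 84 h, and 10.16 and 10.08 at 96 h, so that each late array was higher than each early one, by 2.45-fold on average (1.29 ± 0.09, SE; limma adjusted p = 2.8e-05). The imino acid transporter gene Slc6a20a read 8.64 and 9.11 at 48 h, 8.80 and 8.51 at 60 h, 9.86 and 10.21 at 84 h, and 10.05 and 9.95 at 96 h. The lowest late value lay above the highest early one by less than 1 log2 unit, and the mean rise was 2.38-fold (1.25 ± 0.12; adjusted p = 0.000124).

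Ddx4, an RNA helicase gene of germ cells, had low signals that separated the groups, with 5.37 and 5.35 at 48 h, 5.33 and 5.25 at 60 h, 6.62 and 6.57 at 84 h, and 6.41 and 6.52 at 96 h. It rose by 1.21 ± 0.07 (adjusted p = 6.22e-06). Scd1, the desaturase that makes monounsaturated fatty acids, rose by 1.10 ± 0.15 (adjusted p = 0.000453), from 7.504 to 7.89 early to 8.52 to 9.18 late. Aldh1a7, an aldehyde dehydrogenase gene, rose by 1.15 ± 0.13. Its sequence is close to that of Aldh1a1, so the probe set may read both. The sialyltransferase gene St6galnac3 rose by 1.14 ± 0.14. Of its 3 probe sets 1 was called higher, and the lowest change among them was 0.004. Below 1 log2 unit followed Slc22a4, an organic cation transporter gene (0.97), the non-coding RNA gene Lockd (0.96), the eosinophil peroxidase gene Epx (0.94), the deglycating kinase gene Fn3k (0.89), the thymidylate synthase gene Tyms (0.86) and the centrosome gene Ninl (0.83). Of these 12 rises only the Epx call was lost under an alternative, without both 84 h arrays, at an adjusted p of 0.0776 (lowest 0.00072 and highest 0.0776 over all alternatives).

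The largest falls, taken by the same rule as the rises, included genes of neutrophils and other myeloid cells, a segment of a T-cell receptor locus, and Lyve1. Pglyrp1, a bactericidal protein of neutrophil granules, read 13.22 and 12.08 at 48 h, 12.12 and 12.35 at 60 h, 11.09 and 11.43 at 84 h, and 10.74 and 10.94 at 96 h. Replicate 1 at 48 h was the highest of the 8 and the groups did not overlap. The gene fell by 1.39 ± 0.22, or 2.63-fold (adjusted p = 0.0012). Orm1, an acute phase protein gene, read 9.47 and 9.30 at 48 h, 9.18 and 9.45 at 60 h, 8.17 and 8.10 at 84 h, and 7.59 and 8.45 at 96 h and fell by 1.27 ± 0.15 (adjusted p = 0.000216). Cysltr1, a receptor for cysteinyl leukotrienes, read 9.51 to 9.78 on the early arrays and 8.09 to 8.57 on the late ones and fell by 1.21 ± 0.11 (adjusted p = 0.00011).

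Other receptors of myeloid cells fell too. Clec4e, which senses mycobacterial glycolipids, read 8.81 to 8.98 early and 7.62 to 8.01 late and fell by 1.11 ± 0.10 (adjusted p = 8.41e-05). Clec5a fell by 1.22 ± 0.28, with 96 h replicate 1 (7.39) below the other late arrays (8.70 to 9.08). The adhesion genes Ceacam10 and Ceacam1, which are similar in sequence, fell by 1.15 ± 0.12 and, for Ceacam1, by 1.15 ± 0.17. The Schlafen gene Slfn1 fell by 1.28 ± 0.18 on the brighter of 2 probe sets, while the other changed by 0.27 and was not called. Ankrd22 changed by -1.17 ± 0.19 on the brighter of 2 probe sets (0.01 on the other) and the potassium channel subunit gene Kcne3 by -1.13 ± 0.16. Lyve1, a hyaluronan receptor of lymphatic endothelium and some macrophages, changed by -1.10 ± 0.13. The largest fall among those named was that of Trgv4, a variable segment of the T-cell receptor gamma locus. This segment read 10.55 and 10.44 at 48 h, 10.31 and 10.82 at 60 h, 8.99 and 7.67 at 84 h, and 9.27 and 9.85 at 96 h. It fell by 1.58 ± 0.34 (adjusted p = 0.0069), and its late values ran over more than 2 log2 units. Of its 3 probe sets 2 were called lower, and the other changed by -0.002. The Trgv4 call was lost without both 48 h arrays or both 60 h arrays and with trend and robust settings, at adjusted p values of 0.0606 to 0.0667 (lowest 0.00158 and highest 0.0667 over all alternatives), and the Clec5a call without both 48 h arrays or both 60 h arrays and with trend and robust settings, at adjusted p values of 0.0639 to 0.094 (lowest 0.000411 and highest 0.094 over all alternatives).

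**Figure D3:**
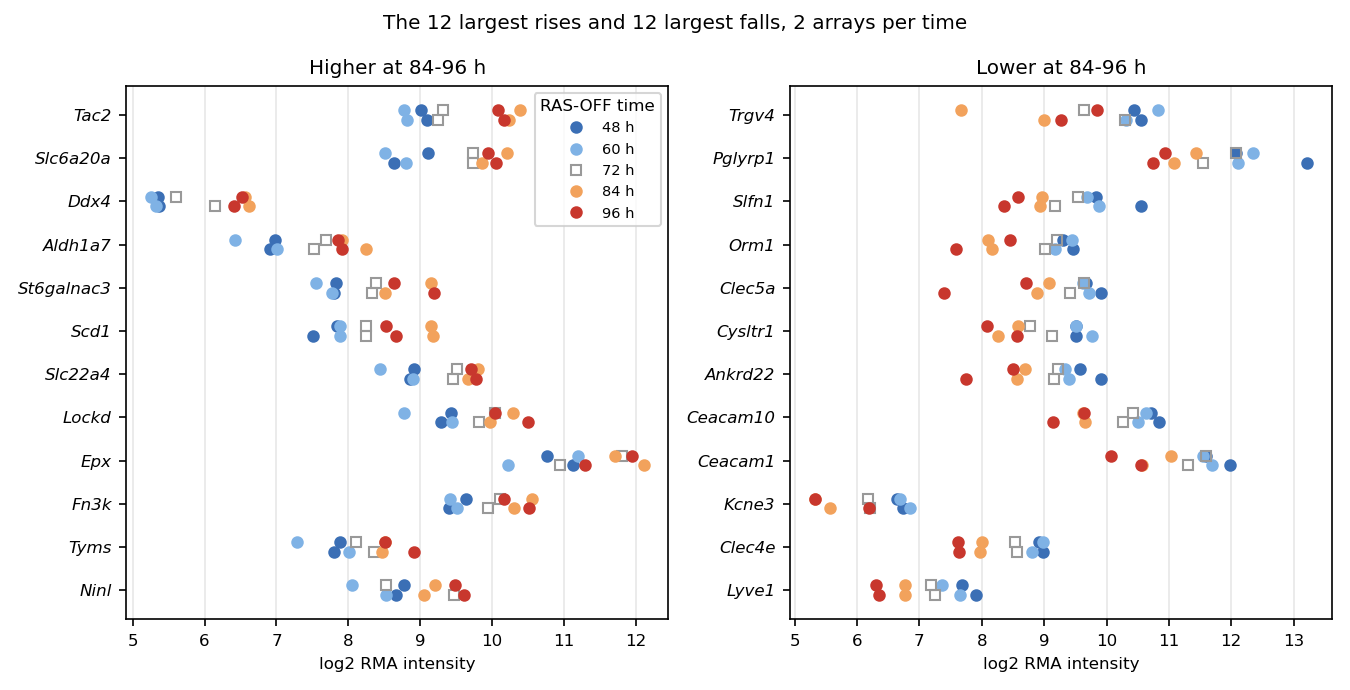
Log2 RMA intensity of the 12 largest rises (left) and 12 largest falls (right) on each array, coloured by time, with the 2 arrays of 72 h as open squares. Genes with provisional symbols were passed over. Within each gene all 4 late points lie on 1 side of all 4 early points, as the choice of these genes required, and for most genes the 72 h points lie between.

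In the pathway that was switched off, 3 output genes were lower late than early. Nras itself read 10.97 and 10.61 at 48 h, 10.64 and 10.72 at 60 h, 10.34 and 10.60 at 84 h, and 10.39 and 10.72 at 96 h, with overlapping groups and a value of -0.22 ± 0.10 (adjusted p = 0.169). Whether these mouse probe sets read the transgene is not given in the labels. Of 17 RAS-ERK feedback and output genes, 3 fell, 0 rose and 14 did not pass, beside 10.7% of all genes lower and 6.01% higher, with a median of -0.06 beside 0.00 for all genes. The same count of 3 fell without the first replicates of 84 and 96 h, and it was 4 without 84 h replicate 1 and 2 without both 84 h or both 96 h arrays. Dusp6, the phosphatase that switches off ERK, read 11.003 and 11.19 at 48 h, 11.16 and 11.22 at 60 h, 10.55 and 10.38 at 84 h, and 10.54 and 10.31 at 96 h. All 4 late arrays lay below all 4 early ones, and the fall was 0.70 ± 0.08 (adjusted p = 0.000177). Ccnd1, which encodes cyclin D1, fell by 0.49 ± 0.09 (adjusted p = 0.0028), from 10.57 to 10.91 early to 10.18 to 10.51 late. Phlda1, an ERK-induced gene, fell by 0.54 ± 0.12 (adjusted p = 0.00756), and that call was lost without both 84 h arrays or both 96 h arrays, at adjusted p values of 0.0548 to 0.0636 (lowest 0.00127 and highest 0.0636 over all alternatives). The ETS factor Etv5 had a value of -0.18 ± 0.12 (adjusted p = 0.371). It read 7.88 and 7.96 at 48 h, 7.62 and 7.72 at 60 h, 8.02 and 7.49 at 84 h, and 7.495 and 7.47 at 96 h. Without 84 h replicate 1, the highest late value, it passed at -0.31 with an adjusted p of 0.0334 (lowest 0.0334 and highest 0.902 over all alternatives). The sprouty inhibitors Spry1, Spry2 and Spry4 had values of 0.00, 0.09 and -0.02, none of which passed.

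More broad was the fall of the immediate early genes, which growth factors induce within minutes. Of 17, 10 fell and 0 rose, and the median change was -0.40. All 10 calls were of genes without overlap, as were 1798 of the 1949 calls of lower genes in the whole fit. Klf4, which also marks monocytes, read 9.77 and 9.81 at 48 h, 9.90 and 10.03 at 60 h, 9.11 and 8.83 at 84 h, and 9.38 and 8.97 at 96 h and fell by 0.80 ± 0.11 (adjusted p = 0.000453). Klf2 read 10.33 and 9.88 at 48 h, 10.11 and 9.96 at 60 h, 9.26 and 9.31 at 84 h, and 9.39 and 9.32 at 96 h and fell by 0.75 ± 0.09 (adjusted p = 0.000282). Junb, an AP-1 subunit, read 9.40 and 8.79 at 48 h, 8.79 and 8.79 at 60 h, 8.15 and 8.34 at 84 h, and 8.22 and 8.29 at 96 h. Replicate 1 at 48 h stood above the other early arrays, and the gene fell by 0.69 ± 0.12 (adjusted p = 0.00228). The other genes that fell were Jun, Zfp36, Klf6, Ier2, Nr4a1, Jund and Fos, with changes from -0.68 to -0.29. The EGR factors Egr1, Egr2 and Egr3 had values of -0.07, 0.14 and -0.01, none of which passed. Leaving out the first replicates of 84 and 96 h, 9 of the 17 fell.

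Hoxa9 and Meis1 of the MLL-AF9 program showed no called change, whereas other members did. Hoxa9 read 9.66 and 9.88 at 48 h, 9.81 and 9.67 at 60 h, 9.74 and 9.43 at 84 h, and 9.84 and 9.94 at 96 h, a value of -0.02 ± 0.10 (adjusted p = 0.929) whose sign turned with the arrays centred on their medians (0.035). Its cofactor Meis1 read 7.55 and 7.67 at 48 h, 7.70 and 7.44 at 60 h, 7.57 and 7.54 at 84 h, and 8.05 and 7.62 at 96 h, with a value of 0.11 ± 0.11 (adjusted p = 0.575) whose sign turned without 96 h replicate 1 (-0.013). The 95% interval of the change reached from -0.24 to 0.20 for Hoxa9 and from -0.13 to 0.34 for Meis1, and a change within these bounds cannot be told from none. Of 18 HOXA cluster and MLL-fusion target genes, 1 rose and 3 fell, beside 6.01% of all genes higher and 10.7% lower. The list's median change was -0.06. Mef2c, a transcription factor of progenitors and MLL-fusion leukemia, read 10.76 and 10.44 at 48 h, 10.54 and 10.29 at 60 h, 9.80 and 9.88 at 84 h, and 9.65 and 9.78 at 96 h and fell by 0.73 ± 0.09 (adjusted p = 0.000371). Lmo4, an adaptor of transcription factors, fell by 0.68 ± 0.09 (adjusted p = 0.000371), and Hoxa7 fell by 0.22 ± 0.06 (adjusted p = 0.0228). Pbx3, the HOX partner, was the member that rose, by 0.44 ± 0.09 (adjusted p = 0.00634), from 8.31 to 8.65 early to 8.80 to 9.08 late. Without 96 h replicate 1, 2 members rose. With both first replicates of 84 and 96 h left out, 1 rose and 2 fell.

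Progenitor genes were mixed. Myb read 11.05 and 11.09 at 48 h, 10.75 and 11.10 at 60 h, 11.07 and 10.89 at 84 h, and 11.08 and 11.14 at 96 h, with a value of 0.05 ± 0.09 (adjusted p = 0.782), and Myc read 10.38 and 10.33 at 48 h, 10.09 and 10.31 at 60 h, 9.93 and 9.96 at 84 h, and 10.15 and 10.27 at 96 h, with a value of -0.20 ± 0.09 (adjusted p = 0.167). Myc passed without both 96 h arrays, at -0.33 with an adjusted p of 0.0465 (lowest 0.0465 and highest 0.74 over all alternatives). The stem cell factor receptor gene Kit read 10.14 and 10.20 at 48 h, 10.12 and 10.18 at 60 h, 9.89 and 9.98 at 84 h, and 9.98 and 10.08 at 96 h, without overlap, yet its value of -0.18 ± 0.06 missed the test (adjusted p = 0.0707). Kit passed under 4 alternatives: without 96 h replicate 2 (-0.21; adjusted p = 0.0482), without the dimmest 40% of genes (adjusted p = 0.0467), with its probe sets averaged (-0.24; adjusted p = 0.0148) and with array weights (-0.20; adjusted p = 0.0309) (lowest 0.0148 and highest 0.36 over all alternatives). Of 18 stem and progenitor genes, 5 fell and 1 rose, beside 10.7% of all genes lower and 6.01% higher. The list's median change was -0.15. Gfi1, a repressor that guides granulocytes, read 8.66 and 8.65 at 48 h, 8.29 and 8.61 at 60 h, 7.86 and 7.65 at 84 h, and 7.79 and 7.73 at 96 h and fell by 0.80 ± 0.09 (adjusted p = 0.000187), whereas its erythroid relative Gfi1b rose by 0.45 ± 0.07 (adjusted p = 0.000996). Erg, Thy1, Cd93 and Procr also passed, with changes of -0.48, -0.47, -0.27 and -0.24. The count of 5 was 2 without 48 h replicate 1, 48 h replicate 2 or 84 h replicate 2, 3 without 60 h replicate 1 or 96 h replicate 2, and 3, 2 and 1 without both arrays of 96, 84 and 48 h. It was 4, with 1 rise, without the first replicates of 84 and 96 h. The Erg call was lost without replicate 1 of 48 h, replicate 2 of 84 h, replicate 1 of 96 h, both 48 h arrays, both 96 h arrays or the first replicates of 84 and 96 h, at adjusted p values of 0.057 to 0.155 (lowest 0.0132 and highest 0.155 over all alternatives). The Thy1 call was lost without replicate 1 of 48 h, replicate 2 of 48 h, replicate 1 of 84 h, replicate 2 of 84 h, replicate 2 of 96 h, both 48 h arrays or both 84 h arrays, at adjusted p values of 0.0626 to 0.281 (lowest 0.00432 and highest 0.281 over all alternatives).

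Granule genes of both stages of maturation fell. Of 19 genes of neutrophil granules and maturation, 16 fell and 0 rose, and the median change was -0.66. Every member's change was negative. Of 9 azurophil granule and promyelocyte genes, 7 fell and 0 rose, and the median change was -0.39. Cxcr2, the receptor that draws neutrophils to chemokines, read 10.89 and 10.65 at 48 h, 10.73 and 10.81 at 60 h, 9.92 and 10.08 at 84 h, and 9.60 and 9.59 at 96 h. The highest late value lay more than 0.5 log2 units below the lowest early one, and the fall was 1.96-fold (-0.97 ± 0.11; adjusted p = 0.000187). Cd177, a neutrophil surface protein gene, read 12.96 and 12.53 at 48 h, 12.49 and 12.78 at 60 h, 11.77 and 12.03 at 84 h, and 11.71 and 11.71 at 96 h and fell by 0.89 ± 0.11 (adjusted p = 0.000336).

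Further falls of the neutrophil list were -0.83 for Olfm4 and -0.82 for Chil1, both of specific granules, -0.78 for the collagenase gene Mmp8, -0.74 for the formyl peptide receptor gene Fpr2, -0.69 for the gelatinase gene Mmp9, -0.69 for Itgb2l, -0.66 for Padi4, which citrullinates histones, and -0.55 for Wfdc21. Smaller falls were those of lactoferrin (Ltf, -0.37), lipocalin (Lcn2, -0.31), Chil3 (-0.29) and cathelicidin (Camp, -0.20). The calprotectin genes S100a8 and S100a9 and the granule gene Ngp had values of -0.06, -0.06 and -0.14 that did not pass. Without the first replicates of 84 and 96 h 14 of the 19 fell, and the median change was -0.59. On the arrays the list median, set against the early mean, was -0.57 and -0.55 at 84 h and -0.68 and -0.64 at 96 h, and it lay between -0.06 and 0.10 early.

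In the azurophil list Hdc, which makes histamine, read 10.44 and 10.33 at 48 h, 9.99 and 10.10 at 60 h, 9.41 and 9.39 at 84 h, and 9.29 and 9.11 at 96 h and fell by 0.92 ± 0.10 (adjusted p = 0.000187). Serpinb1a, an inhibitor of elastase, fell by 0.82 ± 0.13 (adjusted p = 0.00102), and Elane, which encodes elastase, fell by 0.77 ± 0.17 (adjusted p = 0.00806). The Elane call was lost without both 96 h arrays or the first replicates of 84 and 96 h, at adjusted p values of 0.0579 to 0.104 (lowest 0.00525 and highest 0.104 over all alternatives). Ms4a3, Prtn3, Ctsc and Cst7 changed by -0.42, -0.39, -0.39 and -0.35. Mpo and Ctsg, at -0.15 and -0.13, did not pass. The count was 5 without the first replicates of 84 and 96 h and 3 without both 96 h arrays. In the same late arrays the erythroid genes described below summed to 196547 to 216095 in intensity, against 168058 to 173622 early, and the part of this rise in the falls of myeloid genes was not tested.

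To show what lies upstream of the genes that fell together, the 250 bases before the start were taken from RefSeq (GRCm38.p6) and searched on both strands for TTGCNNAA, a short form of the site of C/EBP factors, which drive granulocyte genes. The motifs were chosen with the changes known. Of the 19 neutrophil genes 17 had a promoter in the table, and 6 of them (35.3%) held the motif, against 8.07% of all 14452 promoters. With the first 50 bases after the start included the count was also 6, against 9.04% of all. Outside a chromosome left out of printing, the members with the largest called falls that hold it are Mmp8 (chr9:7558179-7558428, plus strand) and Adam8, a surface protease of neutrophils (chr7:139992563-139992812, minus strand, changed by -0.48). Each is printed 5′ to 3′ towards the gene, with the motif in capitals. A match describes the letters and is not a measured site.
Mmp8: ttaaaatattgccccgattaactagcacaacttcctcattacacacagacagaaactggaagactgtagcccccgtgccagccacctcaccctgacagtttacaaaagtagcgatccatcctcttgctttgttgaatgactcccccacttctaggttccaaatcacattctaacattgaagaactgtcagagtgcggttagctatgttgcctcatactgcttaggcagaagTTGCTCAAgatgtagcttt
Adam8: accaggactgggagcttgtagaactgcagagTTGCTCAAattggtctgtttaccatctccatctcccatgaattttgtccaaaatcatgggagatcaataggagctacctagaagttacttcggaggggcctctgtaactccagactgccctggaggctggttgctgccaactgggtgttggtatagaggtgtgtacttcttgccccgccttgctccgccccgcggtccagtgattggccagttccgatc

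The monocyte and macrophage list had 20 measured members, of which 12 fell and 0 rose, and the median change was -0.44. Ms4a6c, a membrane protein gene of monocytes, read 11.04 and 11.24 at 48 h, 11.17 and 11.04 at 60 h, 10.42 and 10.48 at 84 h, and 10.44 and 10.36 at 96 h. The groups lay apart, with a fall of 0.70 ± 0.07 (adjusted p = 0.000124). The dimmer of its 2 probe sets changed by 0.05 and was not called. The chemokine gene Ccl9 read 10.50 and 10.80 at 48 h, 10.81 and 10.99 at 60 h, 10.02 and 9.74 at 84 h, and 10.27 and 9.31 at 96 h and fell by 0.94 ± 0.17 (adjusted p = 0.00251), with late values that spread over almost 1 log2 unit. Fcgr3, an IgG receptor gene, fell by 0.64 ± 0.09 (adjusted p = 0.000771). The fractalkine receptor Cx3cr1, Cd300a, the endotoxin receptor Cd14, Ccr2, Cd68, the transcription factor Irf8, Ccl6, F13a1 and lysozyme (Lyz2) also fell, with changes from -0.64 to -0.30. The CSF1 receptor gene Csf1r, at -0.11, and Vcan, at -0.01, did not pass. Leaving out the first replicates of 84 and 96 h, 11 fell, and the median change was -0.55, and over all alternatives the count ran from 8 to 15.

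Antigen presentation genes fell, and those named here stood near their late level by 72 h. Of 16 dendritic cell and MHC class II genes, 10 fell and 0 rose, and the median change was -0.34. Ciita, the master regulator of MHC class II, read 10.10 and 9.72 at 48 h, 10.003 and 9.80 at 60 h, 9.28 and 9.38 at 84 h, and 9.33 and 9.22 at 96 h and fell by 0.60 ± 0.09 (adjusted p = 0.000637). Its values at 72 h, 9.33 and 9.30, lay within the late range. The peptide-loading gene H2-DMa, at 11.47 to 11.60 early and 10.80 to 11.16 late, fell by 0.60 ± 0.08 (adjusted p = 0.000525). It read 10.95 and 10.86 at 72 h. Cd209a, a lectin of dendritic cells, fell by 0.84 ± 0.10 (adjusted p = 0.00032), with 10.69 and 10.36 at 72 h beside 10.41 to 10.84 late. Ly75, Cd74, Batf3, Ctss, H2-Oa, H2-Ab1 and H2-Eb1 passed as well, with changes from -0.49 to -0.29. The list median was -0.31 and -0.38 against the early mean at 72 h and -0.29 to -0.40 on the late arrays. Without the first replicates of 84 and 96 h 11 of the 16 fell.

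Eosinophil granule genes went the other way. Of 11 eosinophil, basophil and mast cell genes, 3 rose and 0 fell, beside 6.01% of all genes higher and 10.7% lower. The list's median was 0.01. Epx read 11.13 and 10.76 at 48 h, 10.22 and 11.19 at 60 h, 12.11 and 11.72 at 84 h, and 11.29 and 11.95 at 96 h. Replicate 1 at 60 h was the lowest early array, and the rise was 0.94 ± 0.21 (adjusted p = 0.00809). The major basic protein genes Prg2 and Prg3, which share sequence, rose by 0.54 ± 0.15 (adjusted p = 0.024) and, for Prg3, by 0.82 ± 0.21 (adjusted p = 0.0154), with overlapping groups. The receptors Ccr3, Il5ra and Siglecf had values of 0.02, 0.02 and -0.05, and the mast cell and basophil genes Cpa3 and Mcpt8 of -0.08 and -0.01. The Prg2 call was lost without replicate 1 of 60 h, replicate 1 of 84 h, replicate 2 of 96 h, both 48 h arrays, both 60 h arrays or both 84 h arrays, at adjusted p values of 0.0627 to 0.148 (lowest 0.00261 and highest 0.148 over all alternatives). The Prg3 call was lost without both 48 h arrays, both 60 h arrays or both 84 h arrays, at adjusted p values of 0.0515 to 0.0894 (lowest 0.0014 and highest 0.0894 over all alternatives). All 3 passed without the first replicates of 84 and 96 h. Without both 84 h arrays none of the 3 passed, and without both 48 h or both 60 h arrays 1 did.

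Red cell genes rose. Of 28 erythroid genes, 16 rose and 0 fell, and the median change was 0.26. Aqp1, the water channel of red cells, read 12.73 and 12.78 at 48 h, 12.73 and 12.68 at 60 h, 13.26 and 13.47 at 84 h, and 13.24 and 13.23 at 96 h and rose by 0.57 ± 0.07 (adjusted p = 0.000282). Tmod1, which caps actin in the red cell skeleton, read 10.35 and 10.52 at 48 h, 10.53 and 10.40 at 60 h, 11.10 and 11.42 at 84 h, and 11.09 and 10.92 at 96 h and rose by 0.69 ± 0.10 (adjusted p = 0.000608). Both separated early from late on every array. Epb42, a membrane skeleton gene, rose by 0.54 ± 0.09 (adjusted p = 0.0014) on its brightest probe set, a call lost with its probe sets averaged, at an adjusted p of 0.161 (lowest 0.000748 and highest 0.161 over all alternatives). The transcription factors Gata1 and Klf1 rose by 0.37 ± 0.06 (adjusted p = 0.00151) and, for Klf1, by 0.22 ± 0.06 (adjusted p = 0.0184), and the haem enzymes Urod and Fech by 0.37 and 0.27. The haem gene Alas2 (0.20), Slc4a1 (0.13), Car2 (0.11) and both near-identical alpha globin copies, Hba-a1 (0.09) and Hba-a2 (-0.01), did not pass. The transferrin receptor gene Tfrc was called at 0.20 ± 0.06 with an adjusted p of 0.0375, and that call was lost without any single array, at adjusted p values of 0.052 to 0.0947 (lowest 0.00801 and highest 0.308 over all alternatives), and turned to -0.166 with its probe sets averaged. The count of 16 was 13 without the first replicates of 84 and 96 h and 10 without both 48 h or both 84 h arrays. Without 48 h replicate 2, 13 rose and 1 fell.

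Cell cycle genes rose almost throughout the lists. Of 30 replication and S-phase genes, 26 rose and 0 fell, and the median change was 0.37. Of 29 mitosis genes, 24 rose and 0 fell, and the median change was 0.35. All 30 and all 29 changes were positive. Cdc6, which loads the replicative helicase, read 11.44 and 11.41 at 48 h, 11.22 and 11.14 at 60 h, 11.83 and 11.96 at 84 h, and 11.87 and 12.01 at 96 h. Each late value exceeded each early one, and the rise was 1.54-fold (0.62 ± 0.08; adjusted p = 0.000392). Pole, the leading strand polymerase gene, read 9.75 and 9.79 at 48 h, 9.56 and 9.56 at 60 h, 10.17 and 10.25 at 84 h, and 10.28 and 10.38 at 96 h and rose by 0.60 ± 0.08 (adjusted p = 0.000332). Tyms, which makes the thymidylate for new DNA, read 7.80 and 7.89 at 48 h, 8.01 and 7.28 at 60 h, 8.47 and 8.51 at 84 h, and 8.91 and 8.51 at 96 h and rose by 0.86 ± 0.15 (adjusted p = 0.00167).

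The other replication genes that passed ran from 0.53 for thymidine kinase (Tk1), 0.52 for a cyclin E gene (Ccne2) and 0.51 for the licensing factor Cdt1 down to 0.27 for Cdc45. The helicase subunits Mcm2, Mcm3, Mcm4, Mcm5, Mcm6 and Mcm7 all passed, at 0.43, 0.29, 0.37, 0.30, 0.28 and 0.38. Pcna (0.21), Chaf1b (0.24), E2f1 (0.19) and Rfc3 (0.13) did not. Among the mitosis genes Cdc25c, the phosphatase that starts mitosis, read 8.67 and 8.55 at 48 h, 8.57 and 8.68 at 60 h, 9.18 and 9.33 at 84 h, and 9.17 and 9.13 at 96 h and rose by 0.58 ± 0.07 (adjusted p = 0.000198). Cdc25b rose by 0.48 ± 0.08 (adjusted p = 0.00158). The kinetochore gene Cenpf rose by 0.59 ± 0.08 (adjusted p = 0.000415) on the brightest of 3 probe sets, a call lost with its probe sets averaged, at an adjusted p of 0.517 (lowest 0.000188 and highest 0.517 over all alternatives). The proliferation marker Mki67 rose by 0.35, topoisomerase (Top2a) by 0.29 and Cdk1 by 0.27, while Plk1 (0.19), Aurkb (0.21), Foxm1 (0.17), Ube2c (0.18) and Cenpe (0.05) did not pass.

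The replication list median rose from -0.05 to 0.06 early to 0.32 to 0.42 late, with 0.21 and 0.23 at 72 h. The mitosis list went from -0.05 to 0.07 to 0.30 to 0.44, with 0.29 and 0.33 at 72 h. Leaving out the first replicates of 84 and 96 h, 27 replication and 21 mitosis genes rose. The replication count was 16 without both 60 h arrays and the mitosis count 15 without both 84 h arrays. Erythroid genes rose on the same arrays (median 0.26), and the part of red cell precursors in this rise was not tested.

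**Figure D4:**
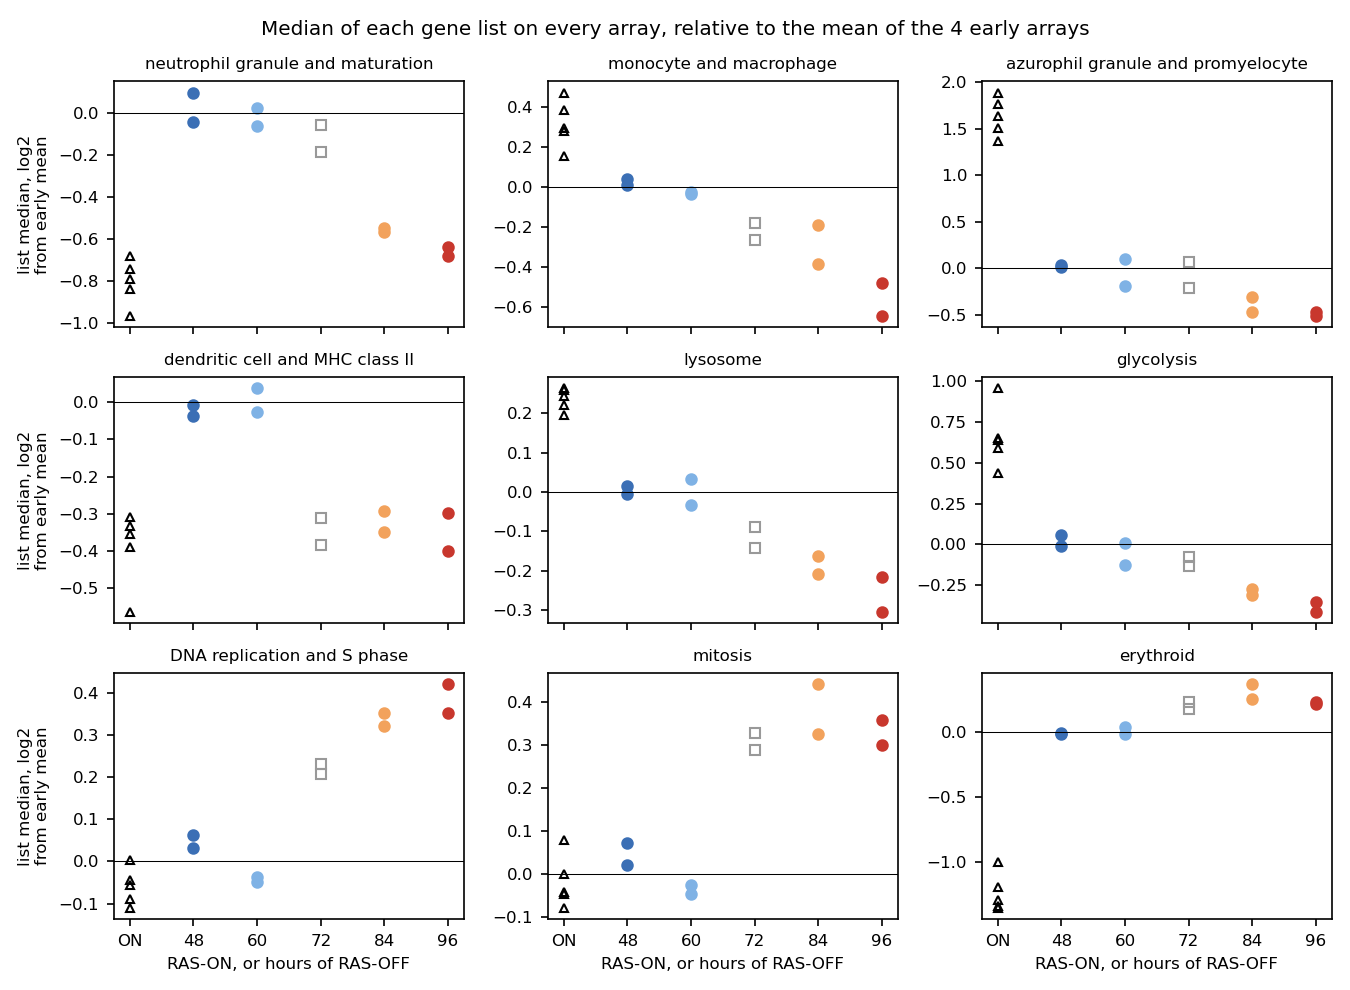
Median log2 difference from the mean of the 4 early arrays, for 9 gene lists, on each RAS-ON array (triangles) and each RAS-OFF array by hours. Granule, monocyte, MHC class II, lysosome and glycolysis medians lie lower at 84 and 96 h than at 48 and 60 h, and replication, mitosis and erythroid medians lie higher.

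Promoters of these genes were searched for the motifs of their known regulators, in the same way as above. The 4 spellings searched of the E2F site (TTTCCCGC, TTTGGCGC, TTTGCCGC and TTTCGCGC) were found in 8 of 25 replication promoters (32%) in the 250 bases before the start, against 2.8% of all 14452. With the next 50 bases included the counts were 10 (40%) and 3.38%. TTTGAA, the cell cycle homology region that represses mitosis genes in resting cells, was found in 7 of 23 mitosis promoters (30.4%) before the start, against 11.9% of all, and in 17 (73.9%) against 13.3% with the next 50 bases. The counts for this motif thus hang on the bases after the annotated start. Again a match is a description. Genes on a chromosome left out of printing were passed over. Among the rest, the printed promoters are those of the called members with the largest changes that hold the motif before the start: Cdc6 (chr11:98907901-98908150, plus strand), Pola1, the catalytic subunit of DNA polymerase alpha (chrX:93632156-93632405, minus strand, changed by 0.43), the spindle motor gene Kif11 (chr19:37376132-37376381, plus strand, changed by 0.39) and Ccnb2, a mitotic cyclin (chr9:70421555-70421804, minus strand, changed by 0.35). Capitals mark an E2F spelling or its reverse complement in Cdc6 and Pola1 and TTTGAA or its reverse complement in Kif11 and Ccnb2.
Cdc6: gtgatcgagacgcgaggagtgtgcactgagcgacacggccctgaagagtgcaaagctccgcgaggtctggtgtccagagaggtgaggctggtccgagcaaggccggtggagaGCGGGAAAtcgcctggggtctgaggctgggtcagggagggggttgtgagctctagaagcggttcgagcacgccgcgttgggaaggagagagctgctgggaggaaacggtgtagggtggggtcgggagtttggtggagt
Pola1: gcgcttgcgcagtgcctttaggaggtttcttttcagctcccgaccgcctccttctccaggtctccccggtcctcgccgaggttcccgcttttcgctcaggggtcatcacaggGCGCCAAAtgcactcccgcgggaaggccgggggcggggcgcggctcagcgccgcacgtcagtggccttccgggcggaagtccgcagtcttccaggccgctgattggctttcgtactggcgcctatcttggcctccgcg
Kif11: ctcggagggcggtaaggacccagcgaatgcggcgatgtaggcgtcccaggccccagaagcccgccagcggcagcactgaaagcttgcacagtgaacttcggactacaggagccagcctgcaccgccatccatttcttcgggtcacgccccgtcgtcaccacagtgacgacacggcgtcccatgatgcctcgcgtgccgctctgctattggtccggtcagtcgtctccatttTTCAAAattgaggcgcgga
Ccnb2: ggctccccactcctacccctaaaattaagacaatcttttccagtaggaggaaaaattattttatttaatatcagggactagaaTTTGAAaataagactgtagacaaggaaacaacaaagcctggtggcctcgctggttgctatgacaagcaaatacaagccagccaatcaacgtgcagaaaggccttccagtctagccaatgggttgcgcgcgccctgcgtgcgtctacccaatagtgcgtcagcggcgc

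Glycolysis genes fell. Of 15, 9 fell and 1 rose, and the median change was -0.33. Pkm, pyruvate kinase, read 11.98 and 11.24 at 48 h, 11.19 and 11.44 at 60 h, 10.60 and 10.85 at 84 h, and 10.62 and 10.33 at 96 h and fell by 0.87 ± 0.16 (adjusted p = 0.00267). Replicate 1 at 48 h was the highest early array, and the groups did not overlap. Pgam1 fell by 0.57 ± 0.10 (adjusted p = 0.00175) and Pfkp, the platelet form of phosphofructokinase, fell by 0.47 ± 0.07 (adjusted p = 0.000864). Hk2, Pgk1, the lactate exporter gene Slc16a3, Aldoa, Ldha and Aldoc changed by -0.45, -0.39, -0.38, -0.33, -0.28 and -0.26. The member that rose was the muscle form of phosphofructokinase, Pfkm, by 0.33 ± 0.07 (adjusted p = 0.00645). Without 84 h replicate 2, 2 rose and 8 fell. Without both 84 h arrays 2 rose and 6 fell, and without both 96 h arrays 0 rose and 6 fell. With the pair of first replicates at 84 and 96 h left out, 1 rose and 8 fell.

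Cholesterol synthesis, MYC output and oxidative phosphorylation were counted in the same way. Cholesterol synthesis had 20 measured genes, of which 4 fell and 0 rose, beside 10.7% of all genes lower and 6.01% higher, and the median change was -0.08. These were Msmo1 (-0.49 ± 0.11), Mvd (-0.37 ± 0.09), Ebp (-0.31 ± 0.08) and the regulator Srebf2 (-0.26 ± 0.08), at adjusted p values of 0.00885, 0.0122, 0.0242 and 0.0357. The count was 2 without 48 h replicate 1 or 48 h replicate 2, 3 without 84 h replicate 2 or the first replicates of 84 and 96 h, 0 without both 48 h arrays, where 1 rose, and 2 without both arrays of 60, 84 or 96 h. The Ebp call was lost without replicate 1 of 48 h, replicate 2 of 48 h, both 48 h arrays, both 60 h arrays, both 84 h arrays or the first replicates of 84 and 96 h and with arrays centred on their medians, at adjusted p values of 0.0556 to 0.175 (lowest 0.0122 and highest 0.175 over all alternatives). The Msmo1 call was lost without both 48 h arrays or both 96 h arrays, at adjusted p values of 0.0636 to 0.116 (lowest 0.000965 and highest 0.116 over all alternatives), and the Mvd call without both 48 h arrays, at an adjusted p of 0.138 (lowest 0.0077 and highest 0.138 over all alternatives). Among the MYC and ribosome biogenesis genes, 28 were measured, with a median change of -0.07. Beside the same shares of all genes, 1 rose (Tfrc, as above) and 1 fell. The latter was Polr1a (-0.46 ± 0.14; adjusted p = 0.0406), a polymerase subunit whose call was lost without replicate 2 of 48 h, replicate 1 of 60 h, replicate 2 of 60 h, both 48 h arrays, both 60 h arrays, both 96 h arrays or the first replicates of 84 and 96 h, with its probe sets averaged and with arrays centred on their medians, at adjusted p values of 0.0683 to 0.198 (lowest 0.0121 and highest 0.198 over all alternatives). In the list, 4 fell and 0 rose without 96 h replicate 2, 2 fell with probe sets averaged, and 0 passed in limma without the first replicates of 84 and 96 h (4 at an unadjusted p below 0.05). Of 26 oxidative phosphorylation genes 0 passed in limma (1 at an unadjusted p below 0.05), 1 passed without 96 h replicate 1, and the median was 0.02. Sdhc, a subunit of complex II, had the largest value, -0.28 ± 0.15 (adjusted p = 0.248). It read 10.93 and 10.14 at 48 h, 10.12 and 10.21 at 60 h, 10.05 and 10.02 at 84 h, and 10.05 and 10.17 at 96 h, with 48 h replicate 1 above the other 7. Ndufs1, the core subunit of complex I, had a value of 0.18 ± 0.07 (adjusted p = 0.0932).

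Stress lists fell in part. Of 26 heat shock and ER chaperone genes, 10 fell and 1 rose, and the median change was -0.21. Hspa1b, an inducible Hsp70 gene, read 8.62 and 9.30 at 48 h, 10.02 and 8.97 at 60 h, 8.13 and 8.30 at 84 h, and 8.29 and 7.89 at 96 h and fell by 1.07 ± 0.23 (adjusted p = 0.00638), with early values spread over more than 1 log2 unit. Its near-identical copy Hspa1a fell by 0.75 ± 0.17 (adjusted p = 0.00756), and the arrays may not separate the pair. Herpud1, of ER-associated degradation, fell by 0.45 ± 0.07 (adjusted p = 0.00127), and Xbp1, Dnajb9, Hsph1, Dnaja1, Creld2, Hspa8 and Calr fell as well, with changes from -0.39 to -0.25. The rise was that of Dnajb1, by 0.22 ± 0.06 (adjusted p = 0.0246), and it was lost without replicate 1 of 48 h, replicate 2 of 60 h, replicate 2 of 84 h or replicate 1 of 96 h, where 0 members of the list rose. Hspa5, the main ER chaperone, had a value of -0.17 ± 0.06 (adjusted p = 0.0625). The Hspa1b call was lost without both 96 h arrays, at an adjusted p of 0.0654 (lowest 0.000952 and highest 0.0654 over all alternatives), and the Hspa1a call without both 96 h arrays or the first replicates of 84 and 96 h, at adjusted p values of 0.0608 to 0.0896 (lowest 0.00223 and highest 0.0896 over all alternatives). Without the first replicates of 84 and 96 h 7 fell and 0 rose, and without both 96 h arrays 5 fell.

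ATF4 targets, which answer amino acid shortage, were split. Of 26, 6 fell and 2 rose, beside 10.7% of all genes lower and 6.01% higher, and the median change was -0.08. Cth, an enzyme of cysteine synthesis, read 8.04 and 7.39 at 48 h, 7.68 and 7.21 at 60 h, 6.32 and 5.93 at 84 h, and 6.48 and 7.29 at 96 h and fell by 1.07 ± 0.25 (adjusted p = 0.00991), with 96 h replicate 2 inside the early range. Psat1, of serine synthesis, fell by 0.68 ± 0.17 (adjusted p = 0.0163), the mTOR inhibitor gene Ddit4 fell by 0.90 ± 0.20 (adjusted p = 0.00787), and Cebpb, Psph and Atf5 changed by -0.67, -0.52 and -0.39. Ddit3 and Asns rose by 0.26 ± 0.07 (adjusted p = 0.029) and, for Asns, by 0.23 ± 0.06 (adjusted p = 0.0188). Rises outnumbered falls without 48 h replicate 1 (4 rose and 3 fell) and without both 48 h arrays (2 rose and 1 fell). The count of falls was 3 without 84 h replicate 2 and 3 and 2 without both arrays of 60 and 84 h, and over all alternatives the count of rises ran from 0 to 4. Leaving out the first replicates of 84 and 96 h, 3 fell and 1 rose. The Cth call was lost without both 48 h arrays, both 84 h arrays or the first replicates of 84 and 96 h and with trend and robust settings, at adjusted p values of 0.0557 to 0.104 (lowest 0.00142 and highest 0.104 over all alternatives). The Psat1 call was lost without replicate 1 of 48 h, replicate 2 of 84 h, both 48 h arrays, both 60 h arrays, both 84 h arrays or the first replicates of 84 and 96 h, at adjusted p values of 0.0503 to 0.157 (lowest 0.00228 and highest 0.157 over all alternatives). The Ddit4 call was lost without both 48 h arrays, both 60 h arrays or both 84 h arrays, at adjusted p values of 0.0539 to 0.0823 (lowest 0.000306 and highest 0.0823 over all alternatives).

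FOXO targets were called in both directions. Of 23, 11 fell and 4 rose, and the median change was -0.26. Cited2, a transcriptional coregulator, read 11.78 and 11.62 at 48 h, 11.66 and 11.66 at 60 h, 10.98 and 10.97 at 84 h, and 10.56 and 11.11 at 96 h and fell by 0.78 ± 0.10 (adjusted p = 0.000438). Bcl6 fell by 0.71 ± 0.07 (adjusted p = 0.00016), and Klf2 and Ddit4 have been given above. Foxo3 itself rose by 0.48 ± 0.09 (adjusted p = 0.00247), as did Rictor, a subunit of the second mTOR complex, by 0.31 ± 0.07 (adjusted p = 0.0108), and Sesn1 by 0.32 ± 0.08 (adjusted p = 0.0194). The fourth was Bcl2l11, which encodes the death protein BIM. It read 10.45 and 10.64 at 48 h, 10.64 and 10.38 at 60 h, 10.76 and 11.15 at 84 h, and 10.90 and 10.95 at 96 h and rose by 0.41 ± 0.09 (adjusted p = 0.00784). The Sesn1 call was lost without replicate 1 of 48 h, replicate 2 of 60 h, replicate 1 of 96 h, both 48 h arrays, both 96 h arrays or the first replicates of 84 and 96 h, in the fit of 10 RAS-OFF arrays and with array weights, at adjusted p values of 0.0504 to 0.143 (lowest 0.00302 and highest 0.143 over all alternatives), and the Bcl2l11 call without both 60 h arrays or both 96 h arrays, at adjusted p values of 0.0524 to 0.0529 (lowest 0.00489 and highest 0.0529 over all alternatives). Without both 48 h or both 60 h arrays 6 fell and 2 rose, and without both 84 h arrays 7 fell. Without both 96 h arrays 9 fell and 1 rose, and without the first replicates of 84 and 96 h 10 fell and 3 rose.

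Of 15 BCL2 family genes 4 fell and 1 rose (Bcl2l11), beside 10.7% of all genes lower and 6.01% higher. The list's median change was -0.16. The death gene Bmf read 9.13 and 9.18 at 48 h, 9.29 and 9.10 at 60 h, 8.56 and 8.44 at 84 h, and 8.79 and 8.61 at 96 h and fell by 0.58 ± 0.08 (adjusted p = 0.000562). That call was lost with its probe sets averaged, at an adjusted p of 0.0974 (lowest 8.45e-05 and highest 0.0974 over all alternatives). Bid fell by 0.37 ± 0.09 (adjusted p = 0.0127), and Bnip3 fell by 0.25 ± 0.08 (adjusted p = 0.0377). The survival genes Mcl1 and Bcl2 had values of -0.17 ± 0.06 (adjusted p = 0.0724) and -0.16 ± 0.08 (adjusted p = 0.233). Of 20 p53 targets 4 fell and 1 rose (Sesn1), beside the same shares of all genes, and the median change was -0.16. The cell cycle inhibitor gene Cdkn1a fell by 0.47 ± 0.14 (adjusted p = 0.0313) and Pmaip1, also of the BCL2 family, fell by 0.43 ± 0.13 (adjusted p = 0.0387), while Mdm2 and Trp53inp1 changed by -0.24 and -0.22. The Cdkn1a call was lost without replicate 1 of 48 h, replicate 2 of 60 h, replicate 1 of 84 h, replicate 2 of 84 h, replicate 2 of 96 h, both 48 h arrays, both 60 h arrays or both 84 h arrays, at adjusted p values of 0.0616 to 0.198 (lowest 0.00452 and highest 0.198 over all alternatives). The Pmaip1 call was lost without replicate 2 of 48 h, replicate 1 of 60 h, replicate 2 of 60 h, replicate 1 of 84 h, replicate 2 of 84 h, replicate 2 of 96 h, both 48 h arrays, both 60 h arrays or both 84 h arrays and with arrays centred on their medians, at adjusted p values of 0.0648 to 0.249 (lowest 0.00386 and highest 0.249 over all alternatives). Leaving out any single array left 0 to 2 falls of p53 targets and 2 or 3 of the BCL2 family. The p53 balance turned with arrays centred on their medians, where 3 rose and 1 fell, and without 84 h replicate 1 or both 60 h arrays, where 1 rose and 0 fell. With both first replicates of 84 and 96 h left out, 2 p53 targets fell and 0 rose, and 3 BCL2 family genes fell and 1 rose.

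Lysosome genes fell without a rise. Of 26, 12 fell, and the median change was -0.24. Ctsh, the protease cathepsin H, read 11.72 and 11.75 at 48 h, 11.80 and 11.71 at 60 h, 11.33 and 11.26 at 84 h, and 11.25 and 11.20 at 96 h and fell by 0.48 ± 0.06 (adjusted p = 0.000282), with a spread of at most 0.05 (SD) in either group. The sialidase gene Neu1 fell by 0.59 ± 0.09 (adjusted p = 0.000745) and the cholesterol transporter gene Npc1 fell by 0.45 ± 0.09 (adjusted p = 0.00493). Of the 3 Neu1 probe sets 1 was called lower, and the highest change among them was 0.16. Hexa, Man2b1, Ctsz, Gusb, Asah1, Ctsa, Npc2, the regulator Tfeb and Lipa followed, at -0.40 to -0.26. The membrane proteins Lamp1 and Lamp2 and the protease gene Ctsd had values of -0.06, -0.07 and -0.05 that did not pass. Without the first replicates of 84 and 96 h 10 fell, and without both 48 h or both 60 h arrays 6 and 7. The Npc1 call was lost without both 48 h arrays, at an adjusted p of 0.0756 (lowest 0.00346 and highest 0.0756 over all alternatives).

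Type I interferon response genes fell in part. Of 28, 8 fell and 0 rose, beside 10.7% of all genes lower and 6.01% higher, and the median change was -0.27. Oasl2, an antiviral synthetase relative, read 9.40 and 9.69 at 48 h, 9.25 and 8.46 at 60 h, 8.29 and 8.33 at 84 h, and 8.28 and 8.29 at 96 h. The early arrays spread over more than 1 log2 unit and the late ones hardly at all, and the fall was 0.90 ± 0.19 (adjusted p = 0.00684). Xaf1 fell by 0.55 ± 0.12 (adjusted p = 0.00609) and Ifi27l2a fell by 0.55 ± 0.16 (adjusted p = 0.0314). Bst2, Zbp1, Trim30a, Oas2 and Mx1 passed too, at -0.55 to -0.38, whereas Ifit1, Rsad2 and Usp18 had values of -0.08, 0.15 and -0.09. The count moved with the 60 h arrays, to 4 without 60 h replicate 1 and 13 without 60 h replicate 2. It was 5 without 48 h replicate 2 or 96 h replicate 2, 1 and 2 without both arrays of 48 and 96 h, 13 without both of 60 h, and 3 without the first replicates of 84 and 96 h. The Oasl2 call was lost without both 48 h arrays or both 96 h arrays, at adjusted p values of 0.0667 to 0.0758 (lowest 0.000381 and highest 0.0758 over all alternatives), the Xaf1 call without both 48 h arrays, both 96 h arrays or the first replicates of 84 and 96 h, at adjusted p values of 0.0573 to 0.0964 (lowest 0.000767 and highest 0.0964 over all alternatives), and the Ifi27l2a call without replicate 2 of 48 h, replicate 1 of 60 h, replicate 2 of 84 h, replicate 1 of 96 h, replicate 2 of 96 h, both 48 h arrays, both 84 h arrays, both 96 h arrays or the first replicates of 84 and 96 h, at adjusted p values of 0.0536 to 0.188 (lowest 0.00613 and highest 0.188 over all alternatives). Of 27 chemokine and inflammatory cytokine genes 2 fell and 1 rose, beside the same shares of all genes. The list's median change was -0.02, or 0.03 when arrays were centred. Without both 96 h arrays 2 rose and 1 fell, and without the first replicates of 84 and 96 h 0 rose and 2 fell. Il1rn, the interleukin 1 receptor antagonist, read 9.74 and 9.28 at 48 h, 9.23 and 9.35 at 60 h, 8.65 and 8.65 at 84 h, and 8.09 and 8.35 at 96 h and fell by 0.97 ± 0.14 (adjusted p = 0.000628). The other calls were Il1b (-0.34 ± 0.10; adjusted p = 0.0297) and Ccl22 (0.26 ± 0.07; adjusted p = 0.0167). The Il1b call was lost without replicate 1 of 48 h, replicate 2 of 48 h, replicate 1 of 60 h, replicate 1 of 84 h, replicate 1 of 96 h, replicate 2 of 96 h, both 48 h arrays, both 60 h arrays, both 96 h arrays or the first replicates of 84 and 96 h and with arrays centred on their medians, at adjusted p values of 0.0523 to 0.213 (lowest 0.0102 and highest 0.213 over all alternatives), and the Ccl22 call without replicate 2 of 48 h, both 48 h arrays, both 60 h arrays, both 84 h arrays or the first replicates of 84 and 96 h, at adjusted p values of 0.0515 to 0.16 (lowest 0.00711 and highest 0.16 over all alternatives).

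Markers of the other cells that a spleen holds were followed to see whether they move with the groups. Over all genes 10.7% were lower and 6.01% higher. Of 12 natural killer cell genes 6 fell and 0 rose, and the median change was -0.32. Their summed intensity ran from 4995 to 6110 early and 3940 to 4544 late. Klrd1 fell by 0.44 ± 0.09 (adjusted p = 0.00488), Klrk1 fell by 0.46 ± 0.11 (adjusted p = 0.0103) and the granzyme gene Gzma fell by 0.58 ± 0.15 (adjusted p = 0.0158). Leaving out the first replicates of 84 and 96 h, 3 fell, and without both arrays of 48, 84 and 96 h 1, 2 and 3. The Gzma call was lost without both 48 h arrays, both 84 h arrays or the first replicates of 84 and 96 h, at adjusted p values of 0.092 to 0.161 (lowest 0.00196 and highest 0.161 over all alternatives), the Klrk1 call without both 48 h arrays, both 84 h arrays, both 96 h arrays or the first replicates of 84 and 96 h, at adjusted p values of 0.0582 to 0.11 (lowest 0.00174 and highest 0.11 over all alternatives) and the Klrd1 call without both 84 h arrays, at an adjusted p of 0.0723 (lowest 0.000634 and highest 0.0723 over all alternatives).

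Of 10 T-cell genes 1 fell, Cd3d, beside 10.7% of all genes lower. Cd3d read 10.46 and 10.46 at 48 h, 10.39 and 10.52 at 60 h, 9.77 and 9.72 at 84 h, and 9.53 and 9.79 at 96 h and fell by 0.75 ± 0.07 (adjusted p = 0.000124). When the first replicates of 84 and 96 h were left out, 1 T-cell gene fell too. Its partners Cd3e and Cd3g had values of 0.05 and 0.05, and the summed list went from 2752 to 2956 early to 2161 to 2358 late. Of 12 B-cell genes 2 fell and 1 rose, beside 10.7% of all genes lower and 6.01% higher. Their sum was 4022 to 4572 early and 3367 to 3860 late. The immunoglobulin gene Ighm fell by 0.62 ± 0.08 (adjusted p = 0.000534) on the brightest of 11 probe sets, a call lost with its probe sets averaged, at an adjusted p of 0.986 (lowest 0.000132 and highest 0.986 over all alternatives). Cd79b fell by 0.41 ± 0.09 (adjusted p = 0.0085) and Ms4a1 rose by 0.25 ± 0.07 (adjusted p = 0.0202). The Cd79b call was lost without both 48 h arrays or both 96 h arrays, at adjusted p values of 0.0574 to 0.0883 (lowest 0.00586 and highest 0.0883 over all alternatives), and the Ms4a1 call without replicate 1 of 48 h, replicate 2 of 48 h, replicate 1 of 84 h, replicate 2 of 96 h, both 48 h arrays, both 84 h arrays, both 96 h arrays or the first replicates of 84 and 96 h and with its probe sets averaged, at adjusted p values of 0.0514 to 0.194 (lowest 0.0063 and highest 0.194 over all alternatives). Without both 48 h arrays 1 B-cell gene fell, and without the first replicates of 84 and 96 h 3 fell and 0 rose.

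Of 27 stroma and endothelium genes 4 fell and 0 rose, beside 10.7% of all genes lower and 6.01% higher, and the median change was -0.10. Their summed intensity ran from 48004 to 56396 early and 38785 to 53465 late. The members that fell were Lyve1, given above, and 3 further genes of vessels and matrix, Tie1 (-0.55 ± 0.13; adjusted p = 0.0107), Pecam1 (-0.49 ± 0.13; adjusted p = 0.0185) and Sparc (-0.34 ± 0.09; adjusted p = 0.0208). The count was 7 without 84 h replicate 2, 2 without 96 h replicate 1 or 96 h replicate 2, 2 and 7 without both arrays of 48 and 84 h, and 1 without the first replicates of 84 and 96 h. Without both 96 h arrays the direction turned, with 3 rises, 1 fall and a median of 0.06. The Tie1 call was lost without both 96 h arrays or the first replicates of 84 and 96 h, at adjusted p values of 0.07 to 0.129 (lowest 0.00742 and highest 0.129 over all alternatives), and the Pecam1 call without replicate 1 of 96 h, replicate 2 of 96 h, both 48 h arrays, both 96 h arrays or the first replicates of 84 and 96 h, at adjusted p values of 0.0502 to 0.203 (lowest 0.00608 and highest 0.203 over all alternatives).

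Of 18 red pulp macrophage genes, 1 fell, beside 10.7% of all genes lower. It was the haemoglobin scavenger receptor gene Cd163 (-0.28 ± 0.08; adjusted p = 0.0282). The list median was -0.09 and the sum 24754 to 28493 early and 21807 to 27742 late. The Cd163 call was lost without replicate 1 of 48 h, replicate 2 of 48 h, replicate 1 of 60 h, replicate 1 of 96 h, replicate 2 of 96 h, both 48 h arrays, both 60 h arrays, both 96 h arrays or the first replicates of 84 and 96 h and with arrays centred on their medians, at adjusted p values of 0.053 to 0.245 (lowest 0.0109 and highest 0.245 over all alternatives). Without 84 h replicate 1, 2 of these genes fell, and without both 84 h arrays 6 did, whereas 0 did in limma without the first replicates of 84 and 96 h (4 at an unadjusted p below 0.05). Of 14 megakaryocyte and platelet genes 0 passed in limma (0 at an unadjusted p below 0.05), with a median of 0.04 and a sum of 28808 to 34227 early and 28534 to 34212 late. Rab27b had the largest value, 0.27 ± 0.17 (adjusted p = 0.339), and passed without 48 h replicate 2 (0.463; adjusted p = 0.0234) and without both 48 h arrays (0.605; adjusted p = 0.0063; lowest 0.0063 and highest 0.997 over all alternatives). Without both 60 h arrays its sign turned (-0.068). Of 13 hepatocyte genes 1 rose, beside 6.01% of all genes higher. It was Fgg (0.23 ± 0.07; adjusted p = 0.0406), at log2 intensities of 4.85 to 5.07 early and 5.07 to 5.29 late. The Fgg call was lost without replicate 1 of 48 h, replicate 2 of 48 h, replicate 1 of 60 h, replicate 1 of 84 h, replicate 2 of 84 h, replicate 2 of 96 h, both 48 h arrays, both 60 h arrays, both 84 h arrays or the first replicates of 84 and 96 h, at adjusted p values of 0.0576 to 0.284 (lowest 0.00517 and highest 0.284 over all alternatives). Of 11 adipocyte genes 2 rose, beside 6.01% of all genes higher. These were the glucose transporter gene Slc2a4 (0.39 ± 0.07; adjusted p = 0.00179) and the lipase gene Lpl (0.31 ± 0.08; adjusted p = 0.0138), while Adipoq and Lep had values of -0.29 and 0.01. The Lpl call was lost without both 48 h arrays, both 60 h arrays or both 84 h arrays and with its probe sets averaged, at adjusted p values of 0.0583 to 0.326 (lowest 0.0036 and highest 0.326 over all alternatives). Of 4 sex-linked genes 0 passed in limma (0 at an unadjusted p below 0.05), and Xist had a value of 0.15 ± 0.08 (adjusted p = 0.241). When the first replicates of 84 and 96 h were left out, 2 adipocyte genes rose. In limma 0 genes then passed in the hepatocyte, megakaryocyte, endocrine pancreas, oxidative phosphorylation and sex-linked lists (2, 0, 1, 1 and 0 at an unadjusted p below 0.05). The part of any of these cells in the falls and rises above was not tested.

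**Figure D5:**
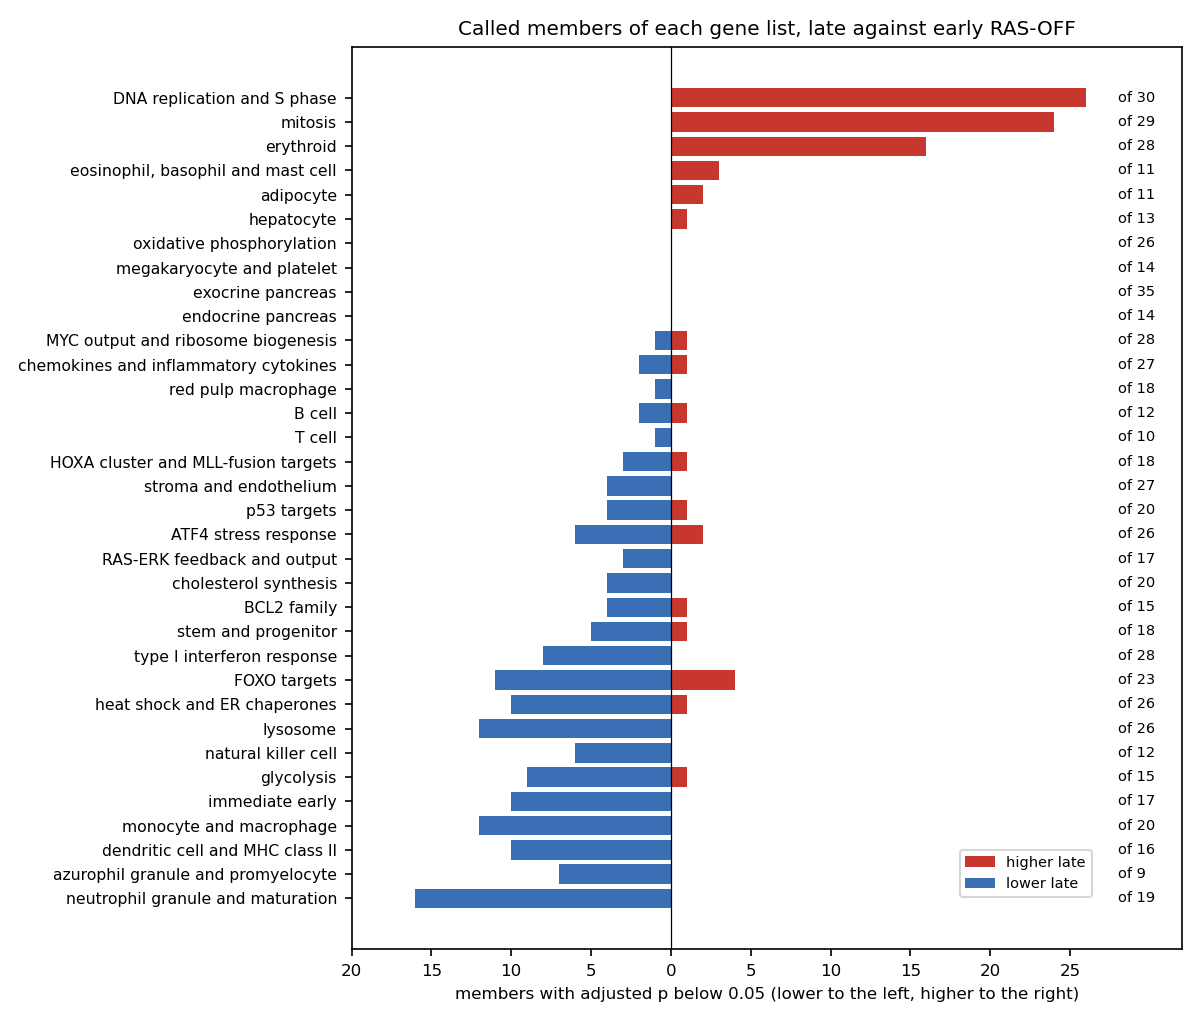
Number of members of each gene list with an adjusted p below 0.05, lower late to the left and higher late to the right, with the number of measured members at the margin. DNA replication (26 of 30), mitosis (24 of 29) and erythroid genes (16 of 28) lie to the right, and neutrophil (16 of 19), monocyte (12 of 20) and lysosome genes (12 of 26) to the left.

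Set beside the 5 RAS-ON arrays, which were not in the fit and are given as levels only, the late values lay on either side. Dusp6 stood at 11.61 to 12.25 in RAS-ON, 11.003 to 11.22 early and 10.31 to 10.55 late, and Klf4 at 11.15 to 11.89, 9.77 to 10.03 and 8.83 to 9.38. Tac2 stood at 6.90 to 7.66 in RAS-ON, 8.78 to 9.10 early and 10.08 to 10.39 late. For these 3 genes the late arrays were the farthest from RAS-ON. Phlda1 stood at 8.14 to 8.96 in RAS-ON, 8.94 to 9.60 early and 8.63 to 8.74 late, with the late values inside the RAS-ON range. Cxcr2 stood at 8.21 to 8.89 in RAS-ON, 10.65 to 10.89 early and 9.59 to 10.08 late, and Hdc at 8.84 to 9.32, 9.99 to 10.44 and 9.11 to 9.41. For Cxcr2 and Hdc, as for the median of the neutrophil list, late values lay nearer to RAS-ON than early ones did, and for Hdc they overlapped it. Other granule genes did not follow. The azurophil list median, set against the early mean, was 1.63 in RAS-ON and -0.515 to -0.306 late. Elane stood at 13.12 to 13.62 in RAS-ON, 11.41 to 12.33 early and 10.71 to 11.14 late. Pglyrp1 stood at 11.59 to 12.37 in RAS-ON, 12.08 to 13.22 early and 10.74 to 11.43 late, below RAS-ON. H2-DMa stood at 11.39 to 11.85 in RAS-ON, which holds the early range of 11.47 to 11.60, and its late range of 10.80 to 11.16 lay below both.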

How the data were processed

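RNA from AML cells of leukemic spleens was hybridised to 1 Affymetrix mouse genome array per sample. The authors deposited 1 table of RMA intensity values on a linear scale (RMA per the submitters' processing notes; not given in the sources used here: version, settings), and log2 of these deposited values was taken here. RMA puts all arrays of a set on 1 distribution, so a shift common to most genes would not be seen. Of 45101 probe sets 34945 had 1 gene symbol, 932 several and 9160 none, and 64 were controls; of those with 1 symbol, 34741 also had a gene identifier in RefSeq, which changed 0 symbols. The probe set brightest over the 8 arrays stood for each of 18193 genes, of which 9010 had more than 1.

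Late and early RAS-OFF were compared with limma 3.58.1 in R 4.3.3 (lmFit and eBayes, 1 mean for each set of 4 arrays) with Benjamini-Hochberg adjustment over all 18193 genes and a threshold of 0.05. Errors of changes are SE. On simulated data with the early means and the residual spreads of the fit, it recovered 85% of 100 genes shifted by 0.5 log2 units. It recovered 98% of 100 shifted by 1 and called 9 others. The simulated noise was independent between genes, and far fewer genes were shifted than the 3042 called in the data. These rates may therefore not hold for the real arrays. Arrays carry no read depth, and their number limits the precision. The members and gene lists were chosen with earlier results of these data known. Genes were named by a rule: 8 genes whatever their values, the 12 rises and 12 falls of greatest size whose groups did not overlap, the 3 largest called changes of each list (the largest change where none passed), 5 pancreas genes, and the members behind small counts. Genes with provisional symbols, such as Rik names, were passed over for the 12 rises and 12 falls. Further members are given by value alone, and the genes with promoters and the RAS-ON levels were picked after values were seen. The replicate numbers did not pair the samples (correlation of deviations -0.103 to 0.012). Between arrays, correlations over all genes were 0.9954 to 0.9983 early, 0.9916 to 0.9964 late and 0.9872 to 0.9943 across, and median intensity was 152.951 to 156.528. The alternatives tried concern the model, the probe set, the scaling, dim genes and left-out arrays.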

Additional observations from a re-analysis of the deposited data

Results flagged for a closer look

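In 27 of 306 sets of 4 values, early or late, 1 array stood far from the nearest of the others. The gap, as a share of the whole range, passed Dixon's critical value for 4 values. Chance gives about 1 in 20 such sets. However, the 306 sets include pancreas genes picked for high values on 84 h replicate 1 and control probe sets checked for 96 h replicate 1. The count of 27 can therefore not be read against that share. Of these 27, 9 were on 84 h replicate 1, 7 on 96 h replicate 1, 4 each on 48 h replicate 1 and 60 h replicate 1, 2 on 60 h replicate 2 and 1 on 84 h replicate 2.

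Replicate 1 at 84 h stood high for the median of the exocrine pancreas list (gap 0.994 of the range) and for its genes Ctrb1 (0.989), Prss2 (0.974), Clps (0.966), 2210010C04Rik (0.965), Reg1 (0.958) and Cela1 (0.942). It also stood high for the ETS factor Etv5 (0.957) and the aldehyde dehydrogenase gene Aldh1a7 (0.833). Replicate 2 at 84 h stood high for the water channel gene Aqp1 (0.865).

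Replicate 1 at 96 h stood high for the 3′ minus 5′ difference of Gapdh (0.954) and of beta-actin (0.946). It stood low for Ceacam10 (0.923), for the polymerase gene Polr1a (0.886) and for the median of the chemokine list (0.861), and high for the thymidylate synthase gene Tyms (0.899) and for the HOX cofactor Meis1 (0.846).

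Among the early arrays, 48 h replicate 1 stood high for the AP-1 gene Junb (0.994) and the succinate dehydrogenase gene Sdhc (0.892), and low for the beta-actin difference (0.968) and the desaturase gene Scd1 (0.868). Replicate 1 at 60 h stood high for the leukotriene receptor gene Cysltr1 (0.997) and for the erythroid list median (0.849), and low for the granulocyte repressor gene Gfi1 (0.863) and for Myb (0.855). Replicate 2 at 60 h stood low for the transporter gene Slc22a4 (0.891) and for Aldh1a7 (0.83).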

How the results depend on the processing

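Of 99 called genes named by the rule, 56 kept their call under each alternative run on them (22, or 21 for genes among the dimmest 40%), and 43 lost it under at least 1. Leaving out 1 array at a time gave 854 to 990 higher and 1567 to 1889 lower genes, against 1093 and 1949 with all 8. The count of higher genes was 1721 with arrays centred on their medians, 682 without both 60 h arrays, 628 without both 96 h arrays, 728 without the first replicates of 84 and 96 h, 1727 with probe sets tested separately and 6 with a minimum of 1 log2 unit. The count of lower genes was 1035 without both 48 h arrays, 1273 without both 84 h arrays, 3207 with probe sets tested separately and 23 with a minimum of 1 log2 unit. The replicate number as a block gave 1007 higher and 1834 lower genes, and the numbers did not pair the samples (correlations of deviations from -0.103 to 0.012). The sign turned, with no call on either side, for Myb in the mean of its probe sets (-0.052), without 60 h replicate 1 (-0.036), without both 60 h arrays (-0.026) and without both 96 h arrays (-0.019); for Hoxa9 with centring (0.035), without 48 h replicate 2 (0.022), without 84 h replicate 2 (0.085) and without both 84 h arrays (0.135); and for Meis1 on the probe set brightest over 15 arrays (-0.232), in the mean of probe sets (-0.031), with array weights (-0.007), without 96 h replicate 1 (-0.013), without both 96 h arrays (-0.035) and without the first replicates of 84 and 96 h (-0.007). Rab27b turned without both 60 h arrays (-0.068). Among pancreas genes, Prss2 turned without 84 h replicate 1 (-0.112), both 84 h arrays (-0.142) and both first replicates (-0.132), Reg1 without 84 h replicate 1 (-0.06) and both first replicates (-0.126), Ctrb1 without both 84 h arrays (-0.004) and both first replicates (-0.004), and 2210010C04Rik without both first replicates (-0.018). Leaving out 1 array at a time, Myb ran from -0.036 to 0.098, Hoxa9 from -0.087 to 0.085, Meis1 from -0.013 to 0.156, Prss2 from -0.112 to 1.928 and Reg1 from -0.060 to 2.076. Tfrc, called at 0.20, turned to -0.166 in the mean of its probe sets. The causes were not tested. Of 770 list medians under alternatives, 703 moved by less than 1 SD between arrays and 67 by more. With 4 arrays a side, changes under 0.5 log2 units are those most often missed, and dim probe sets, such as those of Fgg and Ddx4, understate changes.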
